A study of Drosophila melanogaster with 5 samples.

Results

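The genes described here are 10 members of the ecdysone response and nuclear receptor group of the fly, out of 17453 genes in the deposited count tables. They are *EcR*, *usp*, *Eip75B* (E75), *Eip78C* (E78), *Hr3*, *Hr4*, *Hr39*, *Hr51*, *Hr96* and *ftz-f1*, taken from a fixed list of names and matched to the tables by FlyBase identifier. All 10 were found. Their RNA was measured in 5 single cells aspirated from the *Drosophila melanogaster* pars intercerebralis (PI), a group of neurosecretory cells at the top of the brain. Cells 1 to 4 were kept by the study and Cell D was discarded for the way its reads mapped, so its value is set apart throughout. Every cell came from a fly in which kurs58-GAL4 drove the membrane reporter mCD8::GFP or C767-GAL4 drove the nuclear reporter nlsGFP, and every fly also carried Dilp2mCherry, which marks the insulin-producing cells that were to be avoided. Both drivers are active in PI cells other than the insulin-producing ones, and which of them labelled which cell is not given, nor are the age and the sex of the flies. No cell was treated, and there is no comparison group.

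Ecdysone is the steroid hormone that times molting and metamorphosis in insects, and it continues to circulate in the adult, where it acts on reproduction, memory and sleep. Its active form enters the cell and binds a nuclear receptor made of EcR and Ultraspiracle (Usp, the fly retinoid X receptor). The bound pair switches on a set of early genes, several of which encode further nuclear receptors, and these in turn control later genes, so that a pulse of hormone is turned into an ordered series of transcription factors. E75, HR3 and FTZ-F1 are successive steps in this series in the developing fly.

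Levels are given as log2(RPM + 1), where RPM is reads scaled to a total of 1000000 reads on genes, and a gene was counted as expressed at 1 RPM or more, the threshold used by the study. Brackets hold exact Poisson 95% intervals of the reads of a gene in a cell. They cover counting error only, because reads of amplified RNA are not independent molecules. A pair of cells is said to differ beyond counting error only where these intervals do not overlap. Reads on genes totalled 3451331 to 4913151 per cell, and a count of 0 was read as a level of at most 3 reads, or 0.611 to 0.869 RPM. Reads lie mostly at the 3′ ends of transcripts, and so levels are compared mainly between cells. Where a threshold, a mean or a distance sets genes side by side, how well each gene yields reads also enters.

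The cells differed in what else they held. *Dh44*, the peptide gene of a subset of PI output cells, took 13.2% of the reads on genes in Cell 3 and 0.0111% to 0.0381% in the other 4 cells. *Ilp2*, the insulin-like peptide gene of the cells that were to be avoided, had 4, 46, 8179 and 1 reads in Cells 1 to 4 and 768 in Cell D. *SIFa*, the peptide gene of another subset, had 80 reads in Cell 3, 489 in Cell D and 0 in Cells 1, 2 and 4. The 6 peptidergic cell markers that were matched summed to 839, 1925, 12208, 1039 and 35309 RPM in Cells 1, 2, 3, 4 and D, with the peptidergic cell regulator *dimm* at 0 reads in all 5. Cells 3 and D were thus set apart by their peptide genes, including one of the cells that were to be avoided. Of 10 neuron markers, Cell 1 had 6 at 1 RPM or more, Cell 3 had 9 and Cells 2, 4 and D had all 10. The summed level of the 7 fat body markers that were matched was 45252, 39185, 9870 and 17851 RPM in Cells 1 to 4 and 1008 RPM in Cell D, with the larval genes *Fbp1* and *Fbp2* at 0 reads throughout. Fat body markers were thus lowest in Cell D and, among the kept cells, in Cell 3. The summed level of 8 photoreceptor markers was 13441, 16178, 1879, 45718 and 573 RPM in the same order, and that of 7 glia markers was 1693, 3125, 754, 4973 and 1733 RPM. The defining glia gene *repo*, named here after its values were seen, had 1, 0, 0, 300 and 37 reads. Photoreceptor sums followed the same order at the low end, and *repo* passed the threshold in Cells 4 and D. The hemocyte and muscle markers, 6 in all, summed to 476, 251, 95.4, 264 and 13.4 RPM. The paper also recorded glial, fat body and photoreceptor genes, and names debris of other cells as a possible source.

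At least 1 RPM was recorded for 6 of the 10 members in each of Cells 1 and 2, for 2 in Cell 3 and for 9 in each of Cells 4 and D. Over all genes of the tables, non-coding genes included, the share at this level was 23.7%, 34.5%, 17.7% and 35.1% for Cells 1 to 4 and 40.7% for Cell D. The members' share was therefore higher than the share of all genes in Cells 1, 2, 4 and D, whereas in Cell 3 it was close to it. Only *usp* and *Eip75B* were expressed in all 4 kept cells, which is 2 of 10 members, beside 11.3% of all genes. In at least 1 kept cell, 9 of 10 members were expressed, beside 44.3% of all genes. Without Cell 3, *EcR*, *Hr3* and *ftz-f1* joined them, for 5 of 10 members expressed in each of the 3 cells, beside 19% of all genes. *Hr3* was counted in Cell 1 from 4 reads, and it was below 1 RPM there with all uniquely mapped reads as the total, with the sum of the strands, with MMQuant reads of *Hr3* alone and after thinning to the smallest library. The members were chosen with earlier results of these cells known, so no test was made of these counts.

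**Figure D1:**
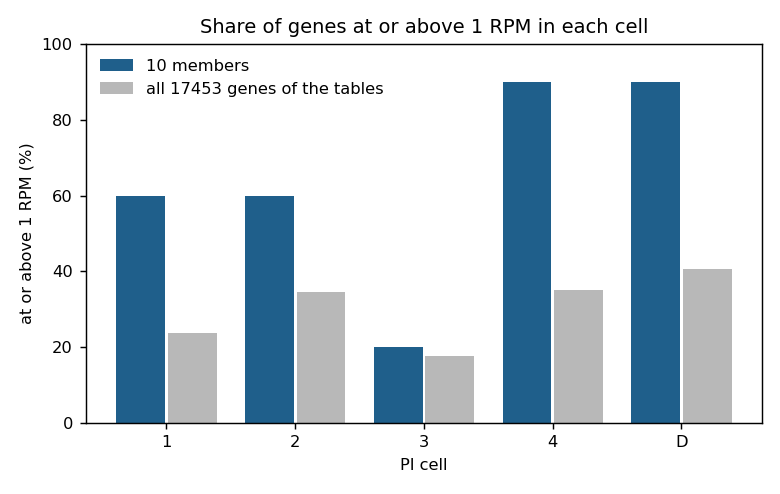
Percentage of genes at or above 1 RPM (y axis) in each PI cell (x axis), for the 10 members (blue) and for all 17453 genes of the tables (grey). The members stand at 60% in Cells 1 and 2, 20% in Cell 3 and 90% in Cells 4 and D, and the grey bars run from 17.7% to 40.7%.

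*EcR* (FBgn0000546) encodes the ecdysone receptor itself. It spans 2R:6087873-6169087 on the minus strand (dm6 coordinates, from the Ensembl annotation BDGP6.54). Its reads numbered 495, 404, 0 and 1223 in Cells 1 to 4, compared with 1999 in Cell D. The levels were 6.99 (6.86 to 7.12), 6.88 (6.74 to 7.02) and 8.11 (8.03 to 8.19) in Cells 1, 2 and 4 and 8.67 (8.61 to 8.74) in Cell D. The order was thus D, 4, 1, 2 and 3, and only Cells 1 and 2 did not differ beyond counting error. Against the 3 reads that a count of 0 allows in Cell 3, or 0.736 RPM, the RPM of *EcR* was at least 159-fold higher in Cell 2 and at least 374-fold higher in Cell 4. The mean over the kept cells was 5.50 ± 3.71 (SD, n = 4), and the spread came largely from Cell 3, without which the mean was 7.33.

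*usp* (FBgn0003964), the partner that EcR needs to bind DNA, spans X:2038798-2042311 on the minus strand. Its reads numbered 45, 194, 112 and 208 in Cells 1 to 4 and 236 in Cell D. These gave levels of 3.64 (3.23 to 4.03), 5.84 (5.63 to 6.04), 4.83 (4.56 to 5.09), 5.58 (5.38 to 5.77) and 5.62 (5.43 to 5.80). Cells 2, 4 and D did not differ from each other beyond counting error, while Cell 3 was below them and Cell 1 lower still. The mean was 4.97 ± 0.98 (SD, n = 4), and Cell 2 exceeded Cell 1 by 4.89-fold in RPM. *usp* shares exon bases with *Actn* and *CG4313*, but MMQuant, which reports reads that fit more than 1 gene, gave no read to *usp* jointly with either.

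Both partners of the receptor were therefore expressed in Cells 1, 2, 4 and D, whereas Cell 3 had reads of *usp* alone. Within a cell the reads of *EcR* were 91.7% (89.0 to 93.7, Wilson 95% interval), 67.6% (63.7 to 71.2) and 85.5% (83.5 to 87.2) of the reads of the pair in Cells 1, 2 and 4, and 89.4% (88.1 to 90.6) in Cell D. In Cell 3 the share was 0 of 112 reads, with an upper bound of 3.32%. Shares were compared between cells only, since the 2 genes need not yield reads equally well. The intervals of Cells 2, 3 and 4 overlapped that of no other cell, and only those of Cells 1 and D overlap. These intervals too cover counting error only. How many other pairs of genes would part the cells in this way was not examined.

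**Figure D2:**
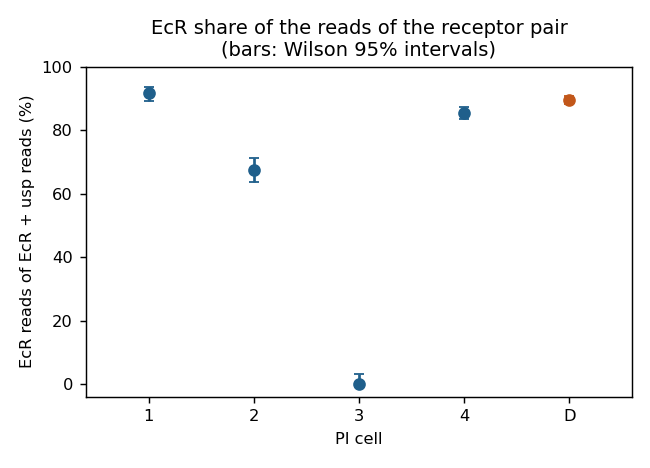
Reads of EcR as a percentage of the reads of EcR and usp together (y axis) in each PI cell (x axis), with Wilson 95% intervals as bars, kept cells in blue and Cell D in orange. The share lies between 67.6% and 91.7% in 4 cells and is 0 in Cell 3.

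*Eip75B* (FBgn0000568) encodes E75, an early ecdysone-induced receptor that binds heme, is related to the mammalian Rev-erb proteins and can repress HR3. It spans 3L:17950953-18064696 on the minus strand and has 7 annotated transcripts. It had 1248, 2205, 1296 and 5561 reads in Cells 1 to 4 and 4897 in Cell D. Its level was 8.32 (8.24 to 8.40), 9.32 (9.26 to 9.38), 8.32 (8.24 to 8.40) and 10.29 (10.25 to 10.33) in the kept cells and 9.96, with a lower bound of 9.92, in Cell D. Cells 1 and 3 did not differ beyond counting error and every other pair did, with Cell 4 highest at 3.94-fold the RPM of Cell 3. The mean was 9.06 ± 0.95 (SD, n = 4). With all reads on genes as the total, *Eip75B* was thus present in Cell 3 at the level of Cell 1, although *EcR* had 495 reads in Cell 1 and 0 in Cell 3. The match of these levels depends on that total, of which *Dh44* took 13.2% in Cell 3 and 0.0111% in Cell 1. With *Dh44* left out, the level of Cell 3 moves above that of Cell 1, and their intervals no longer overlap. The mean of *Eip75B* over the kept cells was then 9.11. *Eip75B* was also the only member above 100 RPM in all 4 kept cells.

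*Eip78C* (FBgn0004865) encodes E78, a receptor related to E75. It spans 3L:21226609-21266503 on the plus strand. Cells 2, 4 and D gave 22, 36 and 137 reads and Cells 1 and 3 gave 0. The levels were 2.88 (2.32 to 3.41), 3.19 (2.74 to 3.61) and 4.85 (4.61 to 5.09), of which those of Cells 2 and 4 overlap and that of Cell D is above both. The value of Cell 4 depends on the counting, because MMQuant assigned only 3 reads to *Eip78C* there and with them the gene fell below 1 RPM, at 0.68. In Cell 2 the programs gave the same 22 reads.

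**Figure D3:**
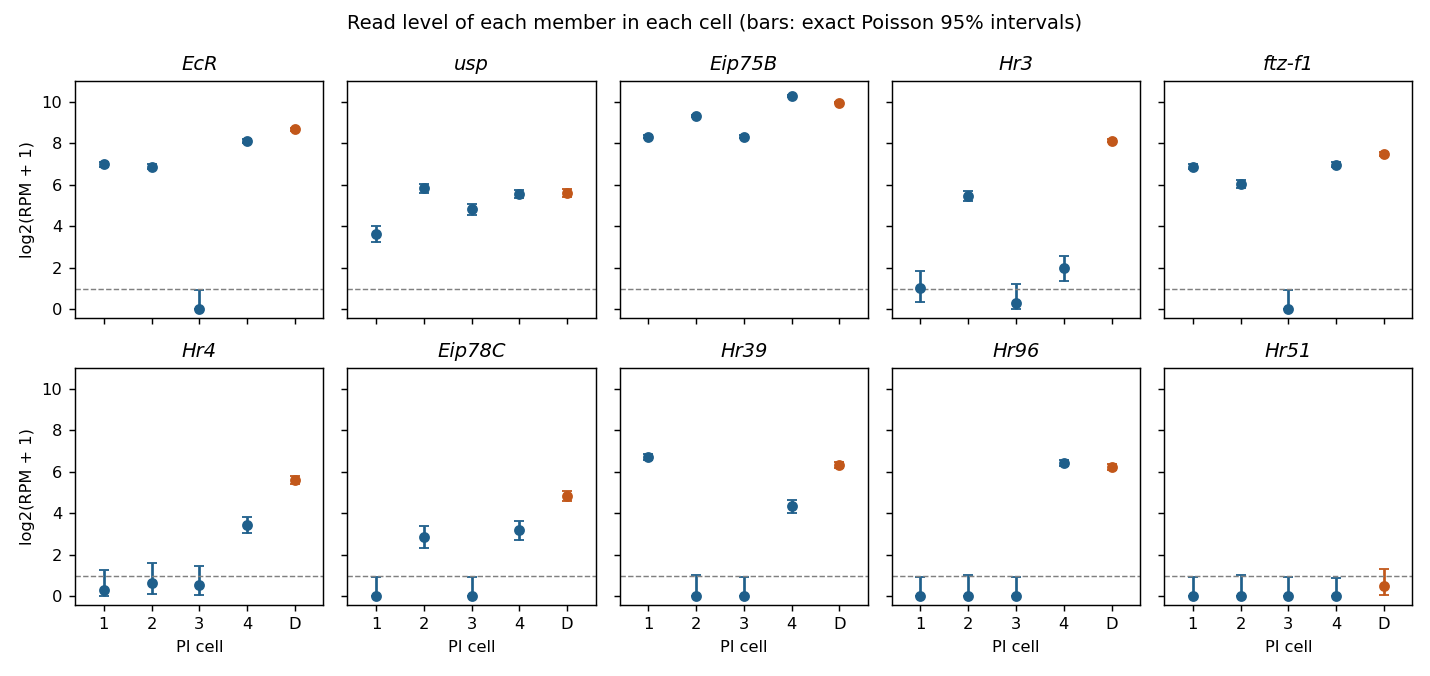
Level of each of the 10 members as log2(RPM + 1) (y axis) in each PI cell (x axis), with exact Poisson 95% intervals as bars, kept cells in blue, Cell D in orange and the threshold of 1 RPM as a dashed line. usp and Eip75B are above the line in all 5 cells, EcR and ftz-f1 fall to 0 in Cell 3 alone, and Hr51 stays below the line throughout.

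*Hr3* (FBgn0000448) encodes an early-late receptor of the ROR family that helps to switch on *ftz-f1* before pupation. It spans 2R:10203995-10237348 on the minus strand. There were 4, 149, 1 and 13 reads of it in Cells 1 to 4, compared with 1371 in Cell D. The level in Cell 2 was 5.47 (5.23 to 5.69), that in Cell 4 was 1.97 (1.36 to 2.59) and that in Cell 1 was 1.02 (0.35 to 1.85), an interval that includes the threshold. Cell D, at 8.13 (8.05 to 8.21), was 6.46-fold above Cell 2 in RPM. The mean over the kept cells was 2.19 ± 2.28 (SD, n = 4). By this count, which leaves out reads shared with an overlapping gene, *Hr3* was well above the threshold only in Cell 2 of the kept cells.

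The values of *Hr3* depend on an overlap, since *CG12912* shares 6466 exon bases with it on the same strand and reads there cannot be assigned to either gene. MMQuant held 1, 83, 1 and 69 such reads for Cells 1 to 4 and 927 for Cell D. No read was assigned to *CG12912* by itself in any cell. With every shared read given to *Hr3*, its level was 1.04, 5.68, 0.53 and 4.12 in Cells 1 to 4 and 8.81 in Cell D. The change was largest in Cell 4, from 1.97 to 4.12, so that with the shared reads Cell 4 too was well above the threshold.

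*ftz-f1* (FBgn0001078) encodes a receptor of the NR5A family that gives tissues the competence to respond to the next ecdysone pulse. It spans 3L:18750607-18801309 on the minus strand. There were 456, 223, 0 and 555 reads of it in Cells 1 to 4 and 872 in Cell D, at levels of 6.88 (6.74 to 7.01), 6.04 (5.84 to 6.22), 0, 6.98 (6.86 to 7.10) and 7.48 (7.38 to 7.57). Cells 1 and 4 did not differ beyond counting error. Relative to the limit in Cell 3, Cell 2 was at least 87.8-fold and Cell 4 at least 169.8-fold higher in RPM. The mean was 4.97 ± 3.34 (SD, n = 4), and 6.63 without Cell 3. A long non-coding gene, *lncRNA:CR45939*, shares 2521 exon bases with it on the same strand. MMQuant put 0, 115, 1 and 47 reads of Cells 1 to 4 and 191 of Cell D on both, and with these added the level was 0.29 in Cell 3 and between 5.98 and 7.50 elsewhere.

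*EcR* and *ftz-f1* thus shared a pattern in which Cells 1, 2, 4 and D expressed them and Cell 3 had 0 reads. Of the 5 members expressed in each of Cells 1, 2 and 4, these 2 had 0 reads in Cell 3. The same was true of 832 of the 3319 genes expressed in these 3 cells, or 25.1%, so that a count of 0 in Cell 3 was common among such genes. Cell 3 had the lowest number of genes at 1 RPM (3097), the highest *Dh44* level, and the lowest fat body and photoreceptor sums of the kept cells. In Cell D, where both of those sums were the lowest of all 5 cells, *EcR* and *ftz-f1* were at their highest. The part of other cells' RNA in the values of Cells 1, 2 and 4 was not tested.

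*Hr39* (FBgn0261239), a receptor that recognizes the same DNA element as FTZ-F1, spans 2L:21237250-21259675 on the plus strand. Cells 1, 4 and D gave 406, 86 and 396 reads and Cells 2 and 3 gave 0. The levels were 6.71 (6.57 to 6.85), 4.35 (4.04 to 4.64) and 6.35 (6.21 to 6.49) in the cells with reads. Cell 1 exceeded Cell 4 by 5.36-fold in RPM, and the limit of 3 reads in Cell 2 by at least 119-fold. This was the only member whose highest level was in Cell 1. It parted from *ftz-f1* in Cell 2, where *ftz-f1* had 223 reads.

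*Hr4* (FBgn0264562), an early-late receptor that in the larva restrains ecdysone production, spans X:1941940-2007956 on the plus strand. There were 1, 2, 2 and 44 reads of it in Cells 1 to 4 and 236 in Cell D. The level was 3.45 (3.04 to 3.84) in Cell 4 and 5.62 (5.43 to 5.80) in Cell D, and below 1 RPM in Cells 1, 2 and 3. It is expressed in 1 kept cell by this count. In the annotation used here *Hr4* shares 46 exon bases with *PIG-K* on the opposite strand, and STAR leaves reads that fit both genes out of the unstranded count. In the counts made for each strand, *Hr4* had 121, 18, 60 and 46 reads in Cells 1 to 4, both strands added. On this basis it passed 1 RPM in all 4 kept cells. Of these reads, 116, 14, 35 and 19 lay on the first strand counted, or 95.9%, 77.8%, 58.3% and 41.3%. Where a member had at least 100 reads in the unstranded count of a cell, this share was 42.9% to 65.7%. MMQuant gave *Hr4* 4, 1, 3 and 45 reads in Cells 1 to 4, below 1 RPM in Cells 1, 2 and 3, and held no read jointly for *Hr4* and *PIG-K* in any cell. *PIG-K* had 303, 38, 13 and 0 reads of its own in Cells 1 to 4. The source of the reads that only the counts by strand gave to *Hr4* was not tested.

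**Figure D4:**
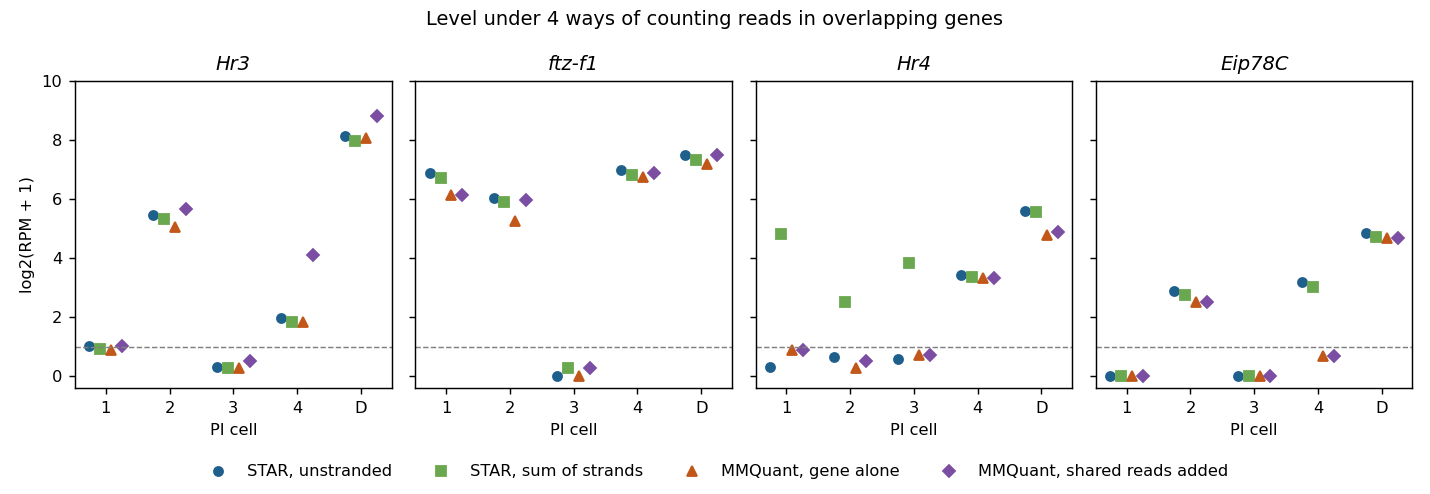
Level as log2(RPM + 1) (y axis) of Hr3, ftz-f1, Hr4 and Eip78C in each PI cell (x axis) under the 4 ways of counting, with the threshold of 1 RPM as a dashed line and each count scaled to its own total. Hr3 in Cell 4 rises from 1.97 to 4.12 with shared reads, Hr4 in Cells 1 to 3 is above the line only with the sum of the strands, and Eip78C in Cell 4 drops to 0.68 with MMQuant.

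*Hr96* (FBgn0015240), a receptor involved in the response to xenobiotics and in cholesterol and triglyceride balance, spans 3R:25025235-25029351 on the plus strand. Its reads came from 2 of the 5 cells, with 373 in Cell 4 and 366 in Cell D. The levels there, 6.41 (6.26 to 6.55) and 6.24 (6.09 to 6.38), did not differ beyond counting error. Cells 1, 2 and 3 had 0 reads, and Cell 4 was at least 96.6-fold above the limit in each of them. No gene of the tables shared exon bases with it. Of the 7 glia markers, 5 were at 1 RPM or more in Cell 4 and 7 in Cell D, but 6 were in Cell 2, where *Hr96* had 0 reads and the glia sum of 3125 RPM was above the 1733 RPM of Cell D. *repo* and *alrm* are named here after their values were seen. *repo* alone among the glia markers reached the threshold in the same 2 cells as *Hr96*, whereas *alrm* had 101, 1 and 544 reads in Cells 2, 4 and D. The part of glial RNA in these values was not tested.

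*Hr51* (FBgn0034012), also called *unfulfilled*, is required in mushroom body neurons and in clock neurons. It spans 2R:15331325-15339384 on the plus strand. Each of Cells 1 to 4 gave 0 reads and Cell D gave 2, at 0.49 (0.07 to 1.30). It was the only member below 1 RPM in every cell.

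The 9 members expressed in at least 1 kept cell all varied between the kept cells beyond counting error, in that the intervals of the highest and the lowest cell did not overlap. This held for 95.4% of the 7734 genes expressed in at least 1 kept cell, so it does not set the members apart. Among the kept cells, Cell 4 had the highest level of 6 members (*EcR*, *Eip75B*, *Eip78C*, *Hr4*, *Hr96* and *ftz-f1*), Cell 2 that of *usp* and *Hr3*, and Cell 1 that of *Hr39*. Of all genes expressed in at least 1 kept cell, 34.6% were highest in Cell 4. The place of *Hr4* and *Eip78C* in this count depends on the counting, since *Hr4* was highest in Cell 1 with the sum of the strands (4.84, beside 3.36 in Cell 4) and *Eip78C* in Cell 2 with MMQuant (2.53, beside 0.68 in Cell 4). Cells 2 and 4 did not differ beyond counting error for *usp* and *Eip78C*, and neither did Cells 1 and 4 for *ftz-f1*. The summed reads of the 10 members were 678, 927, 346 and 1823 RPM in Cells 1 to 4 and 2140 RPM in Cell D.

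Cell D was above the highest kept cell, with intervals that did not overlap, for 5 of the 9 members expressed in any cell (*EcR*, *Eip78C*, *Hr3*, *Hr4* and *ftz-f1*). Over all 8827 genes expressed in any cell, the share was 29.4%. For the other 4, *usp*, *Eip75B*, *Hr39* and *Hr96*, the level in Cell D lay within the range of the kept cells. Below the lowest kept cell there was no member, beside 4.47% of all genes. With a single discarded cell no test against the kept cells was possible. Cell D also had the largest number of genes at 1 RPM, 7110, and the largest summed level of the neuron markers, 18749 RPM beside 1541 to 5859 RPM in the kept cells. Their part in these values was not tested.

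Of the 11 other nuclear receptor genes of the fly, none was expressed in all 4 kept cells and 8 were in at least 1. By cell, 3, 7, 0, 5 and 5 of them were at 1 RPM or more in Cells 1, 2, 3, 4 and D. Together with the members, 9, 13, 2, 14 and 14 of 21 nuclear receptor genes were expressed in these cells. Over all genes, 11.3% were expressed in all 4 kept cells and 44.3% in at least 1. By cell, the share of all genes was 23.7%, 34.5%, 17.7%, 35.1% and 40.7%. The list had its highest mean in *Hnf4*, a regulator of lipid mobilization, which had 931, 717, 0 and 712 reads in Cells 1 to 4 and 56 in Cell D. Its levels were 7.90, 7.71, 0 and 7.33, and 3.63 in Cell D. *Hnf4* therefore lacked reads in Cell 3 as *EcR* did, but unlike *EcR* it was low in Cell D. Fat body marker sums also were lower in Cells 3 and D than in the other cells. The part of fat body RNA in the *Hnf4* values was not tested. *Hr83*, *tll* and *eg*, chosen here after their values were seen, had 0 reads in all 5 cells.

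Of the 14 other ecdysone response genes that were matched, 6 were expressed in all 4 kept cells and 13 in at least 1. For all genes these shares were 11.3% and 44.3%. *Eip93F* encodes E93, the transcription factor that directs adult development at metamorphosis. It had 4205, 10761, 3003 and 12317 reads in Cells 1 to 4 and 3213 in Cell D, at levels of 10.07, 11.61, 9.53, 11.44 and 9.36. Like *Eip75B*, it was thus expressed in every cell, and Cells 1 and 3 were the lower of the kept cells for both genes. The 2 genes parted in the other cells. *Eip93F* was highest in Cell 2 and lowest in Cell D, whereas *Eip75B* was highest in Cell 4 and at 9.96 in Cell D. *Blimp-1*, a repressor that delays *ftz-f1* in the prepupa, had levels of 7.37, 8.72, 8.43 and 8.57 in Cells 1 to 4, with a mean of 8.28 ± 0.61 (SD, n = 4), and was at 8.62 in Cell D. It was present in Cell 3, where *ftz-f1* had 0 reads, as well as in the cells that expressed *ftz-f1*. *crol*, a zinc-finger gene, was at 7.32 ± 0.91. *ImpL2*, which encodes a secreted binding protein of insulin-like peptides, was at 9.26 ± 0.42 over the kept cells but at 3.83 in Cell D. The fat body sum too was lowest in Cell D, at 1008 RPM. Among the kept cells that sum was lowest in Cell 3, where *ImpL2* was highest (9.82). The part of fat body RNA in the *ImpL2* values was not tested. *Eip63E*, a cyclin-dependent kinase gene, ranged from 1.61 in Cell 1 to 6.58 in Cell 4, and *MsrA*, the ecdysone-induced gene formerly called *Eip71CD*, from 1.68 in Cell 3 to 5.93 in Cell 1.

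**Figure D5:**
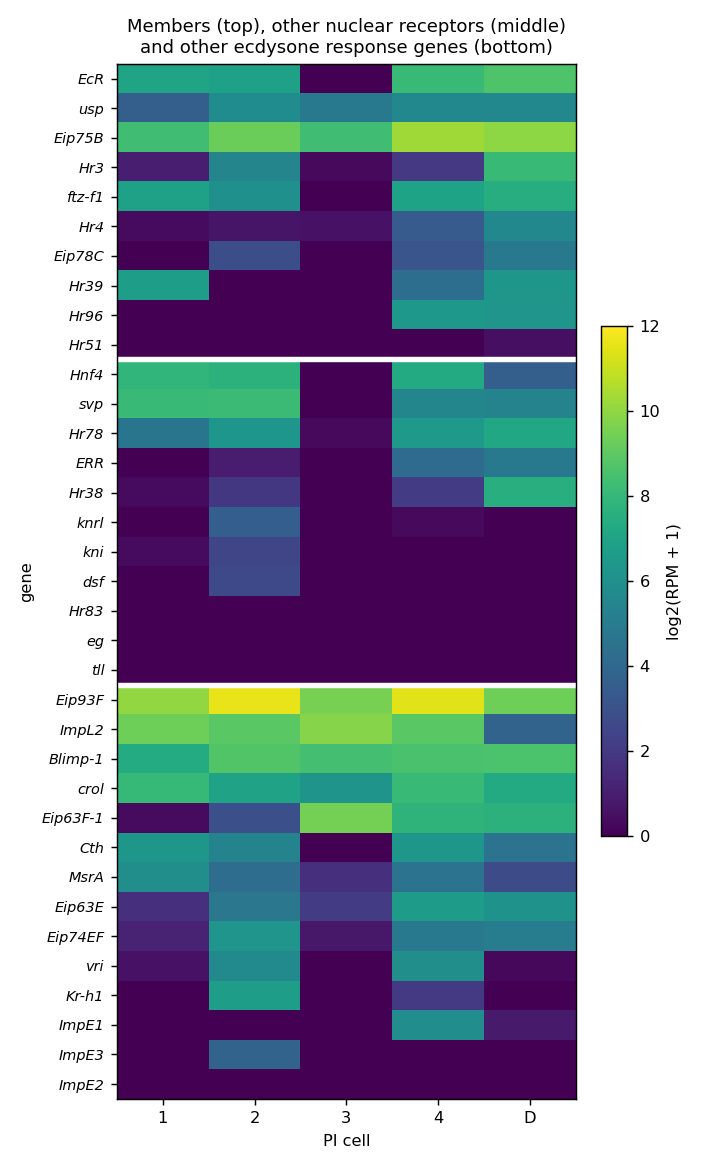
Heat map of log2(RPM + 1) (color) for the 10 members (top block), 11 other nuclear receptor genes (middle) and 14 other ecdysone response genes (bottom) in each PI cell (x axis). In the upper blocks the column of Cell 3 is dark apart from usp and Eip75B, whereas in the bottom block Eip93F, ImpL2, Blimp-1 and crol are bright in Cells 1 to 4.

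Genes for making the hormone had few reads. Of the genes for synthetic enzymes, named here after their values were seen, *spok*, *dib* and *sad* had 0 reads in all 5 cells. *phtm* had 48 reads in Cell 4 (3.56) and 0 elsewhere, and *spo* had 25 in Cell 4 (2.73), 7 in Cell D (1.28) and 0 elsewhere. Beside 11.3% of all genes, 2 of the 10 matched genes of ecdysteroid synthesis and turnover were expressed in all 4 kept cells. These were *Cyp18a1*, whose enzyme inactivates the hormone, at 7.27, 5.63, 5.71 and 5.09 in Cells 1 to 4 and 1.01 in Cell D, and *Npc1a*, a cholesterol transport gene, at 4.94 ± 1.76 (SD, n = 4). The fat body sum was likewise highest in Cell 1 and lowest in Cell D. Among the kept cells, *Cyp18a1* was lowest in Cell 4 and that sum in Cell 3. The part of fat body RNA in the *Cyp18a1* values was not tested. The membrane receptor gene *DopEcR*, whose product binds dopamine and ecdysteroids, was at 1.48, 7.02, 1.89 and 8.18, and at 8.86 in Cell D. It was thus low in Cell 1, where *EcR* was at 6.99, as well as in Cell 3. *Oatp74D*, the ecdysone importer gene, was named after its values were seen. It had 3, 872, 0 and 411 reads in Cells 1 to 4 and 18 in Cell D, so that the importer and *EcR* were both at 1 RPM or more in Cells 2, 4 and D.

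Among 11 cofactors of EcR, 3 were expressed in all 4 kept cells and 10 in at least 1. For all genes these shares were 11.3% and 44.3%. The coactivator gene *tai* was at 7.60, 6.22, 5.26 and 7.36 in Cells 1 to 4 and 7.61 in Cell D. The corepressor gene *Smr* was at 7.39, 8.96, 9.27 and 8.75, and at 9.06 in Cell D. *Smr* was thus highest among the kept cells in Cell 3, the cell without reads of *EcR*, while *tai* was lowest there. *TP53INP*, known as the coactivator DOR, was at 8.24 ± 1.40 (SD, n = 4). Of the juvenile hormone receptor genes, *gce* was expressed in all 4 kept cells (4.67 ± 2.42) and its paralog *Met*, named after its values were seen, in 2.

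The genes nearest to *EcR* over the 5 cells, by Euclidean distance of log2(RPM + 1), were *CG9328* (0.58), *ATPsyndelta* (0.60), *Ogdh* (1.00), *Rab14* (1.07) and *p120ctn* (1.39). Each had at most 0.80 in Cell 3. The genes nearest to *Eip75B* were *Atg8a* (0.87), *HmgZ* (1.05), *chic* (1.08), *Mpcp2* (1.13) and *CkIalpha* (1.16), all of which were at 7.89 or more in every cell. These are descriptions over 5 points that share their libraries.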

How the data were processed

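RNA of 5 single PI cells was amplified in 3 rounds by the authors and sequenced. After trimming (Trim Galore, PRINSEQ) and mapping to dm6 (STAR), the authors deposited raw read counts per gene, unstranded and for each strand, and raw counts by MMQuant, which also lists groups of overlapping genes. Program versions are not given in the sources used here, and the authors counted with an earlier annotation release than the one used here for positions and overlaps. MMQuant column names did not match the cell names, so each table was assigned by its sample record. Its values correlated best with the STAR counts of the same cell (Pearson r across genes of 0.979 or more).

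RPM used reads assigned to genes, with a pseudocount of 1 RPM and a threshold of 1 RPM. The reads that STAR left unassigned, 45.8% to 62.6% of trimmed reads, stayed out. Of 17453 identifiers, 17179 had a symbol. *br*, *nvd*, *Phm* and *FASN1* were not matched and not analysed here. The exact Poisson 95% intervals were checked on simulated data, and the Wilson intervals were not. No test between groups was made, as there is 1 condition. The labels name an animal for each cell, 5 in all, while the series record counts 4, so 2 cells may share an animal.

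Named were all members, the genes of each pathway list that were expressed in all 4 kept cells or had its highest mean, and the 5 genes nearest to *EcR* and to *Eip75B*. Markers entered by their sums and zeros, overlapping genes by position, and other list genes that are named are marked as chosen after their values were seen. Members and lists were chosen with earlier results of these data known. Positions are from Ensembl release 115. Alternatives changed the denominator (with *Dh44* left out, a choice made after the data were seen), strand, counting program, depth, threshold, pseudocount and cells. The calculations used Python 3.11.15, numpy 2.4.6, pandas 2.3.3, scipy 1.17.1 and matplotlib 3.10.9.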

Additional observations from a re-analysis of the deposited data

Results flagged for a closer look

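In the 4 kept cells the highest or lowest value was singled out where its distance from the next cell, as a share of the range, exceeded the 95% critical value of Dixon's test. Chance does this in about 1 of 20 groups of normally distributed values, but in these cells, with many counts of 0, it held for 2039 of the 7734 genes expressed in at least 1 kept cell, or 26.4%. Among the 9 members so expressed, 4 did so, and no excess is read from this count. *EcR* and *ftz-f1* were each at 0 in Cell 3, with gaps of 0.849 and 0.865 of the range. *Hr96*, at 6.41 in Cell 4, met the criterion by having 0 reads in the other 3 cells, and this adds nothing to its being expressed in 1 kept cell. *Hr4* was at 3.45 in Cell 4, with a gap of 0.894 of the range, and this value depends on how overlapping reads are counted. Among the 14 other genes named by the rule, *Hnf4* did so, at 0 in Cell 3, with a gap of 0.928 of the range.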

How the results depend on the processing

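The number of members expressed in all 4 kept cells was 2. It was 1 at a threshold of 100 RPM and 4 when any read counted. With the sum of the strands it was 3, as *Hr4* joined *usp* and *Eip75B*. It ranged from 2 to 5 as each cell was left out, reaching 5 only without Cell 3. The number expressed in at least 1 kept cell was 9. It was 4 at a threshold of 100 RPM and ranged from 7 to 9 as each cell was left out, being 7 only without Cell 4, the only kept cell with *Hr4* and *Hr96*. Of these 28 values, 24 stayed within 1.5 times, the value of 3 among them. By the same limit, 119 of 140 numbers of cells per member stayed and 21 moved. Of 120 means of single members under alternatives, 117 moved by less than the SD between cells. The exceptions were *Hr4* with the sum of the strands, from 1.25 to 3.64, and *Hr51*, which has no spread, in all 5 cells and with the smaller pseudocount. *Hr4* was then expressed in 4 cells in place of 1. *Eip78C* was expressed in 1 kept cell with MMQuant in place of 2. No paired analysis was possible because there is a single group and no test. Values within a few reads of the threshold, such as those of *Hr3* in Cell 1, are limited by depth.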
